A study of Homo sapiens with 8 samples.

Results

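The regions described here are stretches of the genome that carried dense H3K27me3 in wild-type HAP1 cells and still carried it densely in cells without RING1A and RING1B. A region's density is the mean normalized count of the 2 libraries of a group divided by the region's width in kb. Members are the regions on the 22 autosomes with an H3K27me3 density of at least 8 normalized counts per kb in the knockout and of at least 8 in wild type. There were 1010 such regions among 34703 in the whole table, of which 33178 were autosomal. The members were thus chosen by the H3K27me3 values of both genotypes, and those values are given below as a description without tests. H2AK119ub took no part in the choice. Width entered it as the divisor of the counts, and position only through the limit to autosomes.

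H3K27me3, trimethylation of histone H3 at lysine 27, is the mark of Polycomb repressive complex 2 (PRC2) and lies over silent developmental genes. H2AK119ub, a single ubiquitin on histone H2A, is the mark of Polycomb repressive complex 1 (PRC1), whose catalytic subunits are RING1A and RING1B. Either complex can be drawn to the other's mark: some PRC1 forms bind H3K27me3 through CBX subunits, and PRC2 can bind H2AK119ub through JARID2 and AEBP2. The members carry the PRC2 mark in cells that lack the PRC1 ligases.

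The 8 ChIP-seq libraries formed 4 groups of 2: H3K27me3 in RING1A/B double-knockout cells, H3K27me3 in wild-type cells, H2AK119ub in double-knockout cells and H2AK119ub in wild-type cells. HAP1 is a near-haploid human line that descends from KBM-7, itself from a chronic myelogenous leukaemia. Per the labels' protocols, the double knockout was made by editing RING1B in a HAP1 line that already lacked RING1A, and clones were raised from single sorted cells and screened by immunoblot. No source used here states how many knockout clones were profiled, and an effect of the genotype cannot be told apart from one of a clone. The 2 libraries of a group are called biological duplicates, and p-values measure the spread between them. For H3K27me3, the antibody in the labels is not the one in the protocol. The RING1A and RING1B genes were not looked up, because the regions carry no gene names and no hg19 gene annotation was used here. For the same reason, members are named by position.

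Summed over all regions, the libraries held 3788824 and 3224813 normalized counts for knockout H3K27me3, 2393140 and 2456126 for wild-type H3K27me3, 17159 and 20938 for knockout H2AK119ub, and 1575661 and 1866278 for wild-type H2AK119ub. Sequencing depth itself is unknown. The authors normalized the values by a method that no source used here states, and comparisons of level between genotypes rest on it.

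Of the 3969 autosomal regions that were strong in wild type (8 or more per kb), 1010 (25.4%) were kept, 1929 (48.6%) were intermediate in the knockout, with densities from 2 to under 8, and 1030 (26.0%) were erased, with densities below 2. The kept regions covered 24.8 Mb and the erased regions 10.5 Mb. The kept regions made up 3.04% of autosomal regions and 5.57% of their length. In the kept regions the summed H3K27me3 normalized count per kb was 13.4 and 11.8 in the knockout libraries and 10.2 and 10.6 in the wild-type libraries. Both knockout libraries lay above both wild-type libraries on the deposited scale. TMM scaling brings the H3K27me3 libraries to a common scale by taking most regions as unchanged, so it removes most of a global change by construction. After it, the kept regions had 10.5 and 11.2 per kb in the knockout libraries, against 12.3 and 12.6 in the wild-type libraries. In the erased regions the same density was 1.37 and 1.05 per kb in the knockout libraries, against 9.96 and 10.1 in the wild-type libraries. Both classes were chosen at a wild-type density of at least 8, so their wild-type levels are alike in part by the rule. The median wild-type density was 9.78 per kb in kept regions and 9.0 in erased regions, with 90th percentiles of 14.5 and 11.5.

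**Figure D1:**
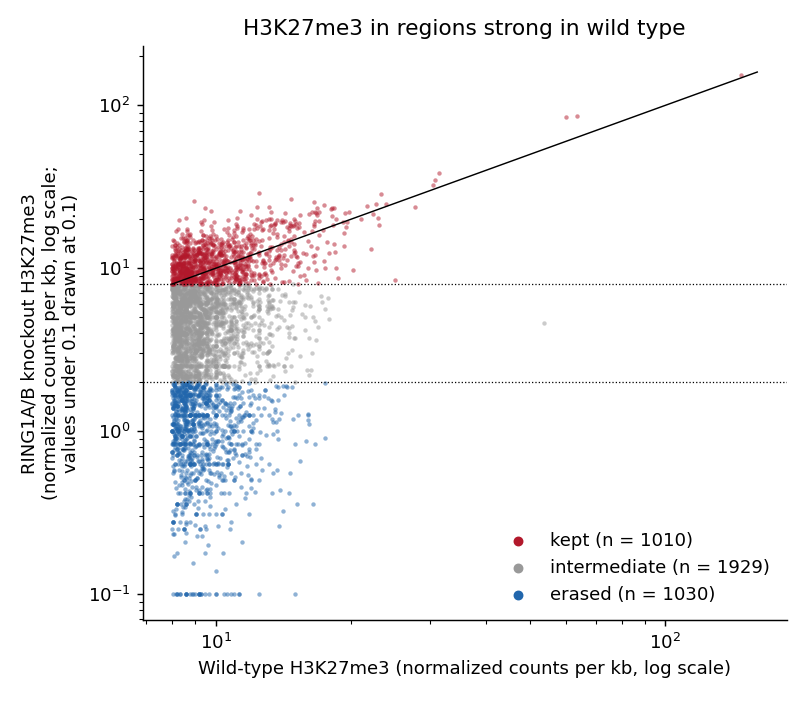
H3K27me3 density in knockout (vertical axis) against wild type (horizontal axis) for the 3969 autosomal regions with a wild-type density of at least 8 normalized counts per kb, both on log scales, 1 point per region. Dotted lines mark knockout densities of 8 and 2, the solid line marks equal densities, and the 1010 kept regions lie around the solid line.

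On the deposited scale, 881 of 1010 members (87.2%) had a knockout density within 1.5-fold of wild type. Above 1.5-fold lay 104 members and below it 25, while the whole range ran from 0.337-fold to 2.88-fold with a median of 1.10-fold. The same measure over all autosomal regions had a median of 1.43-fold, and 23.4% of them were within 1.5-fold. Both knockout libraries lay above both wild-type libraries in 426 members (42.2%), where 52.7% of all autosomal regions did so. Both lay below in 148 members (14.7%), where 29.9% of all autosomal regions did so. The rule used these libraries, so the shares only describe how the members are spread. When the H3K27me3 libraries were instead brought to a common scale with TMM factors, the median fold of these 1010 members was 0.785 and that of all autosomal regions 1.02, so whether the members gained or lost the mark depends on scaling.

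Members lay close to the limit in many cases. A knockout density from 8 to under 9 was found in 202 members, and 331 had a wild-type density in that range. Another 229 strong regions had a knockout density from 7 to under 8 and were not members. Just inside the knockout limit was chromosome 16 from 57615601 to 57638600, at 8 per kb in the knockout and 8.46 in wild type. Just outside was chromosome 7 from 127743401 to 127892600, at 7.99 in the knockout and 11.6 in wild type. At the wild-type limit, chromosome 1 from 55155201 to 55177200 had 10.5 in the knockout and 8 in wild type, and chromosome 1 from 159919601 to 159996400 fell outside with 8.85 in the knockout and 7.99 in wild type. At the other extreme, 42 members had at least 16 per kb in both genotypes.

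How far a choice of members carries to other libraries was read by applying the rule to 1 replicate and looking at the other. Replicate 1 alone chose 1169 regions, whose density in replicate 2 had a median of 9.50 per kb in the knockout and 9.58 in wild type. Both limits were met again in 693 of them (59.3%), and the knockout density stayed at 4 or more in 97.1%. Replicate 2 alone chose 967 regions, with medians in replicate 1 of 12 in the knockout and 9.25 in wild type, and 71.7% met both limits again. In the other replicate, nearly all of these regions thus had a knockout density of at least 4, and many no longer met both limits. A density of 4 is not particular to them. The median over all autosomal regions was 6.94 and 5.68 per kb in the knockout libraries, and their share at 4 or more was not counted.

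The widest members held large H3K27me3 counts, which follow width, and some of them had more of it in the knockout. The widest was chromosome 17 from 77088801 to 77462400 (373.6 kb), with 9134 and 8444 H3K27me3 normalized counts in the knockout libraries, against 3421 and 3660 in the wild-type libraries. This is 23.5 per kb in the knockout and 9.48 in wild type, a 2.48-fold higher density in the knockout and the largest rise among members with at least 50 normalized counts in both genotypes. Next came chromosome 15 from 79272601 to 79603200 (330.6 kb), with 7009 and 6115 in the knockout libraries and 2702 and 2783 in the wild-type libraries, 2.39-fold higher in the knockout. In both regions the groups were far apart, and both were among the 4 picked for the largest rise. The third widest, chromosome 15 from 73078201 to 73349000 (270.8 kb), had 3749 and 3158 in the knockout libraries and 2275 and 2193 in the wild-type libraries. The fourth, chromosome 5 from 176088801 to 176326800 (238 kb), differed in direction, with 2392 and 2105 in the knockout libraries and 2657 and 2787 in the wild-type libraries. The widest 4 members thus did not share a direction. Their wild-type densities, in order of width, were 9.48, 8.30, 8.25 and 11.4 per kb, and the median over members was 9.78.

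The other large rises were in smaller regions. Chromosome 12 from 3581201 to 3607400 (26.2 kb) had 570 and 499 H3K27me3 normalized counts in the knockout libraries, against 246 and 203 in the wild-type libraries. Chromosome 20 from 47128801 to 47133200 (4.4 kb) had 138 and 116 in the knockout libraries and 55 in each wild-type library. These regions were 2.38-fold and 2.31-fold denser in the knockout, and neither pair of groups overlapped. The 4 largest rises were picked on these same values, so a gap between their groups is no separate result. After TMM scaling the 4 largest rises kept their direction, with folds of 1.65 to 1.78.

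The largest falls, among the same members, left knockout densities of 8.02 to 9.76 per kb. Chromosome 1 from 156368201 to 156424600 (56.4 kb) had 522 and 432 normalized counts in the knockout libraries, against 1407 and 1424 in the wild-type libraries, so its density was 8.46 in the knockout and 25.1 in wild type. This is a member by the rule although wild-type density was 2.97 times the knockout density. Chromosome 16 from 1965601 to 1971800 (6.2 kb) had 64 and 57 in the knockout libraries and 116 and 135 in the wild-type libraries. Chromosome 15 from 75516201 to 75544200 (28 kb), in the segment with an extra copy described below, had 245 and 204 in the knockout libraries and 446 and 408 in the wild-type libraries. Chromosome 11 from 75139401 to 75145800 (6.4 kb) had 54 and 55 in the knockout libraries and 97 and 106 in the wild-type libraries. In all 4 the knockout libraries lay below the wild-type libraries without overlap. They were picked on these same values, so the gap is no separate result.

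**Figure D2:**
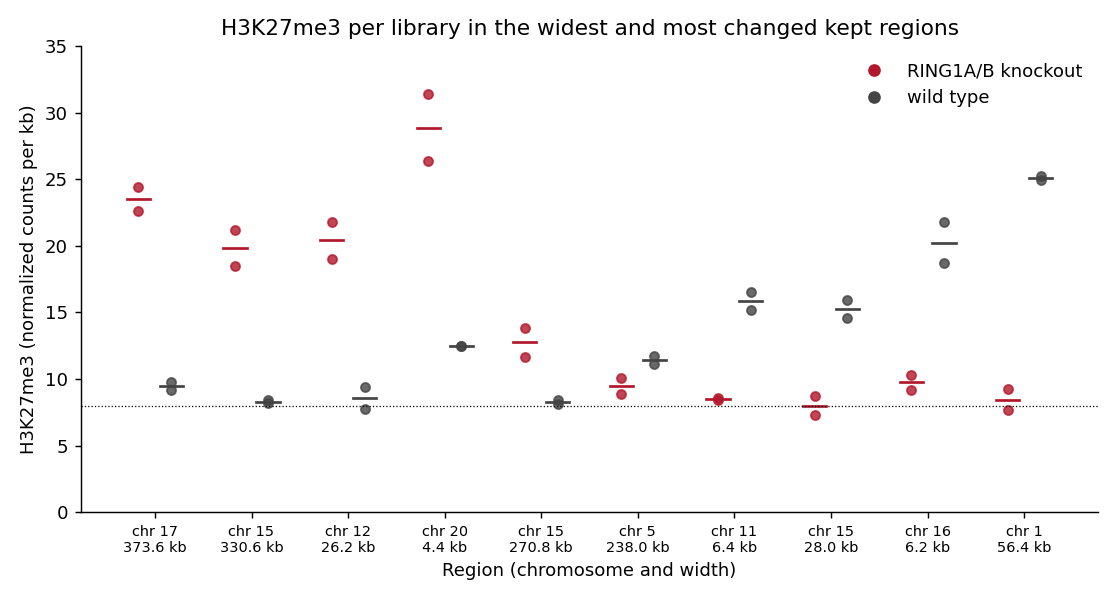
H3K27me3 density per library (dots) and group mean (bars) in the 10 members that are widest or changed most, with the knockout left of wild type for each region and the limit of 8 per kb dotted. The largest rises stand at the left, where knockout dots lie above wild-type dots, and the largest falls at the right, where they lie below.

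Among members with at least 50 H3K27me3 normalized counts in both genotypes, the densest in the knockout were short, and 3 of the 4 lay at or near long stretches without regions. Chromosome 1 from 121484001 to 121485600 (1.6 kb) had 289 and 203 H3K27me3 normalized counts in the knockout libraries and 236 in each wild-type library, or 154 per kb in the knockout and 148 in wild type. Chromosome 6 from 58773801 to 58779400 (5.6 kb) had 519 and 449 in the knockout libraries and 390 and 322 in the wild-type libraries. Both bordered the longest stretch without any region on their chromosome, 21.0 Mb on chromosome 1 and 4.77 Mb on chromosome 6. Chromosome 2 from 91669201 to 91672400 (3.2 kb), with 126 and 97 in the knockout libraries and 96 and 101 in the wild-type libraries, lay 0.150 Mb from such a stretch. The fourth was unlike these: chromosome 9 from 133530201 to 133544400 (14.2 kb) had 549 and 546 in the knockout libraries and 421 and 471 in the wild-type libraries, and lay 7.47 Mb from the outermost region of its chromosome. Within 1 Mb of the longest stretch without regions lay 22 members (2.18%), 1.36% of erased regions and 1.11% of all autosomal regions. No source used here says how reads that map to several places were treated.

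Members were wide. The middle member was 11.6 kb wide, and 2.4 kb and 62.6 kb marked the 10th and 90th percentiles, whereas the median was 3.8 kb for erased regions, 3.8 kb for intermediate regions and 6 kb for all autosomal regions. The 7378 regions that reached the limit in the knockout alone had a median of 9.2 kb and a 90th percentile of 59.6 kb, so large widths were also found outside the members. Among strong regions under 2 kb, 77 of 864 (8.91%) were kept and 34.5% were erased. From 2 to 5 kb, 12.2% were kept and 28.3% erased, and from 5 to 10 kb 33.0% and 20.6%. Among strong regions of 50 kb or more, 151 of 243 (62.1%) were kept and 12.8% erased. Narrow regions reach a density of 8 on few counts: 221 members (21.9%) had under 50 normalized counts on average in at least one genotype. Restricting the rule to regions with at least 50 wild-type counts left 800 members with a median width of 16 kb. Such a floor itself removes narrow regions, so a larger median follows from it. The widths of erased regions under the same floor were not compared.

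**Figure D3:**
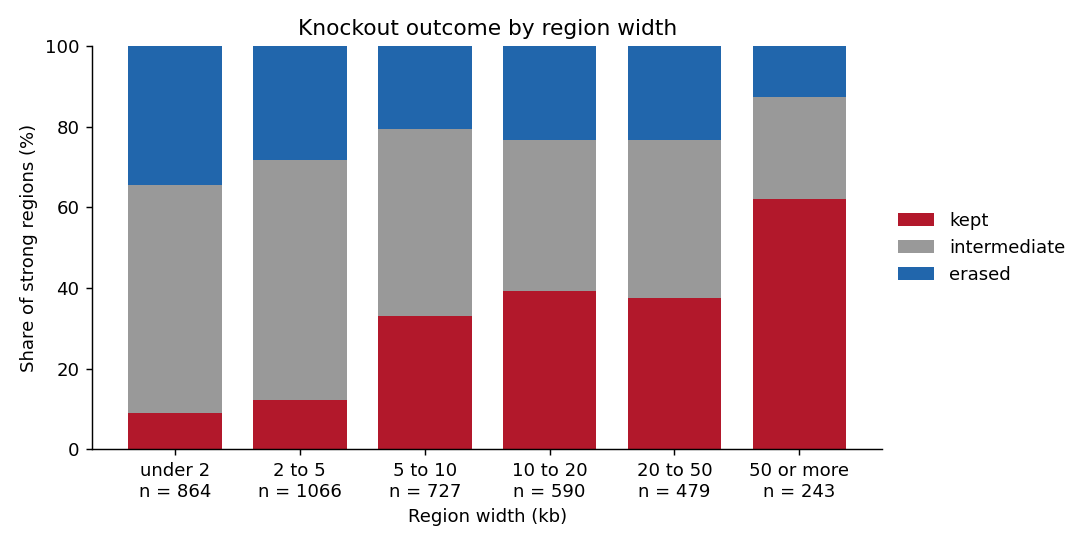
Share of strong regions that were kept, intermediate or erased in the knockout (stacked bars, in percent), by region width in kb, with the number of regions under each bar. The kept share was 8.91% in regions under 2 kb and 62.1% in regions of 50 kb or more.

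Members were more frequent near the ends of chromosomes. As chromosome lengths of hg19 were not used here, distance was taken from the outermost region of each chromosome in the table. Within 5 Mb of it lay 213 members (21.1%), 41 erased regions (3.98%) and 8.58% of all autosomal regions. Of strong regions up to 2 Mb from the outermost region, 148 of 252 (58.7%) were kept and 8.33% erased, and of those over 20 Mb away 20.7% were kept and 29.6% erased. The kept share was higher within 5 Mb than beyond it in each of the 6 width classes. It was 14.3% within 5 Mb against 8.44% beyond it in regions under 2 kb, 57.4% against 29.1% from 5 to 10 kb, and 81.8% against 31.8% from 20 to 50 kb. Strong regions near the ends also had a higher wild-type H2AK119ub density, with a median of 7.71 per kb within 5 Mb and 5.73 beyond it. Regions are not independent replicates, so these shares are descriptions without a test. On the acrocentric chromosomes 13, 14, 15, 21 and 22 the first region lies near the centromere and not near a chromosome end.

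**Figure D4:**
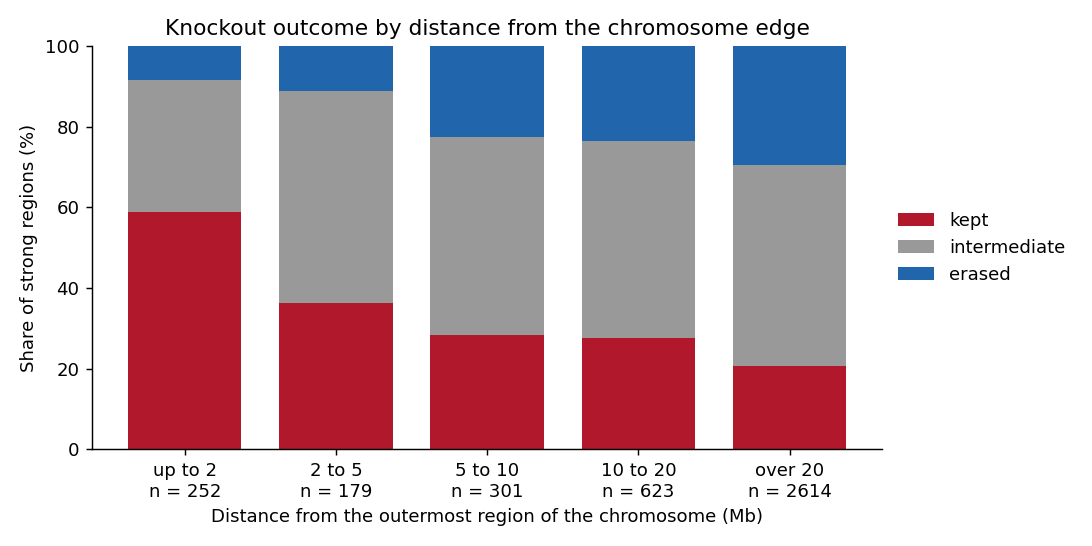
Share of strong regions that were kept, intermediate or erased (stacked bars, in percent), by distance in Mb from the outermost region of the chromosome, with the number of regions under each bar. The kept share was 58.7% up to 2 Mb and 20.7% over 20 Mb away.

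Chromosomes differed in the share kept. On chromosome 19, 76 of 141 strong regions (53.9%) were kept and 7.09% erased. On chromosome 16, 42.5% were kept, on chromosome 20 38.8% and on chromosome 22 37.0%. The lowest shares were on chromosome 13, with 13 of 92 (14.1%) kept and 45.7% erased, chromosome 18 with 15.5% kept and chromosome 6 with 16.8% kept. By length, members covered 18.5% of the region length on chromosome 15, 13.1% on chromosome 17 and 13.0% on chromosome 19, and 1.29% on chromosome 8. Median wild-type H2AK119ub of strong regions was 8.06 per kb on chromosome 19, 6.22 on 16, 6.09 on 20 and 8.08 on 22. On the chromosomes with the lowest shares it was 5.98 on 13, 5.17 on 18 and 5.80 on 6. Chromosomes 16 and 20 were thus close to chromosome 13 in H2AK119ub, though not in the share kept. Its part in the share kept was not tested.

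HAP1 cells are known to carry an extra copy of a segment of chromosome 15. Between 61 and 90 Mb on that chromosome, taken as the approximate extent, lay 53 members, or 11.7% of 452 regions, against 2.38% in the rest of the chromosome. The median wild-type densities inside were 6.75 per kb for H3K27me3 and 7.0 for H2AK119ub, against 5.00 and 3.06 in the rest of chromosome 15. Median knockout H3K27me3 was lower inside, at 4.52 per kb against 6.25. No input library was used here, so copy number and mark density cannot be told apart. Of the strong regions inside, 40.2% were kept, against 25.4% in the rest of chromosome 15 and 24.9% of strong autosomal regions outside the segment. Without the segment 957 members remained, with a median width of 11.2 kb.

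Members often had members as neighbours. At least one adjacent region in the table was also a member for 296 members (29.3%), while 29 erased regions (2.82%) and 5.68% of all autosomal regions had an adjacent member. The reverse held for erased regions, of which 22.4% had an adjacent erased region, compared with 2.87% of members. Adjacent regions with a wild-type density below 8, which the rule did not choose, also differed between members and erased regions. Next to members there were 1342 of them, with a median density of 6.47 per kb in the knockout and 5.77 in wild type. Next to erased regions there were 1528, with 2.13 in the knockout and 5.98 in wild type. Next to all autosomal regions the medians were 6.54 in the knockout and 4.55 in wild type, so the knockout level next to members was close to that in general, and the level next to erased regions was lower. Their wild-type H2AK119ub was close, with medians of 4.27 per kb next to members and 4.00 next to erased regions. The nearest region of any kind was 9.2 kb away for the median member and 11.6 kb for the median erased region.

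The 296 members with an adjacent member formed 127 runs. The longest held 6 consecutive members on chromosome 15 from 83295601 to 84108000, within the segment above. Its summed H3K27me3 was 5442 and 4584 normalized counts in the knockout libraries and 3897 and 3859 in the wild-type libraries. The next longest held 5 members each. On chromosome 22 from 39191401 to 39397400, H3K27me3 was 1390 and 1262 in the knockout libraries and 1517 and 1607 in the wild-type libraries. On chromosome 9 from 139928601 to 140124600, it was 787 and 754 in the knockout libraries and 625 and 680 in the wild-type libraries. The chromosome 9 run was denser in wild-type H2AK119ub, at 16.5 per kb, than the chromosome 15 run at 6.94 and the chromosome 22 run at 5.99. The direction of change differed between the 3 runs, with knockout libraries above wild type on chromosomes 15 and 9 and below it on chromosome 22. After TMM scaling the knockout libraries lay below the wild-type libraries in all 3 runs, with folds of 0.924 on chromosome 15, 0.849 on chromosome 9 and 0.609 on chromosome 22.

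Kept and erased regions had similar wild-type levels of H2AK119ub, slightly lower in kept regions in both libraries. The summed density was 6.30 and 6.90 normalized counts per kb in the kept regions of the 2 wild-type libraries, against 6.51 and 7.88 in the erased regions. Kept over erased, this is a ratio of 0.968 and 0.876, while over all autosomal regions the kept regions were 1.82 and 1.69 times as dense. Medians per region were 5.96 per kb in kept regions, 5.53 in intermediate regions, 6.25 in erased regions and 3.26 over all autosomal regions. Relative to H3K27me3, the median wild-type ratio of H2AK119ub to H3K27me3 was 0.585 in kept regions, 0.666 in erased regions and 0.714 over all autosomal regions. The kept and erased densities overlapped between the 2 wild-type libraries.

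Ranked by wild-type H2AK119ub into 5 nearly equal bins, the strong regions showed no steady order in the share kept. It was 21.3% in the lowest bin, 28.3%, 24.8% and 22.5% in the bins between, and 30.5% in the highest. The erased share was 19.7% in the lowest bin, 22.0%, 27.5% and 33.0% in the bins between, and 27.6% in the highest.

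**Figure D5:**
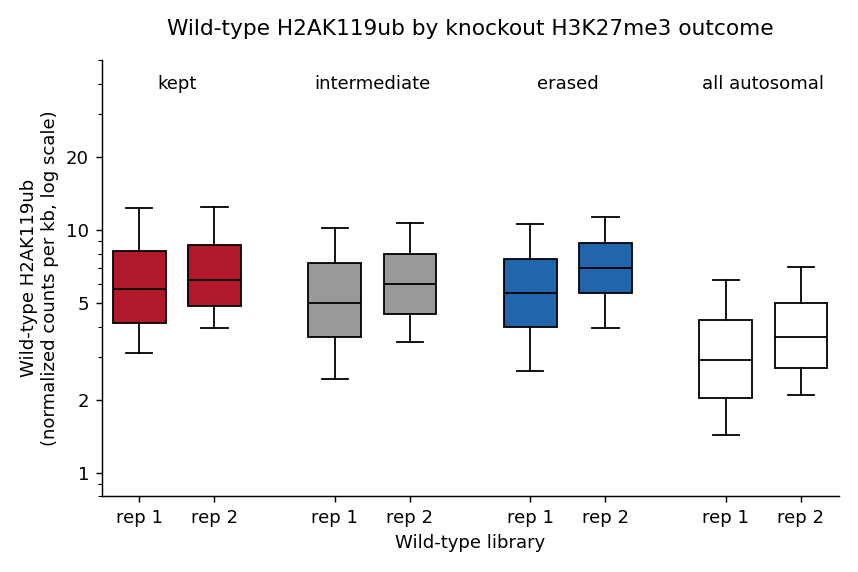
Wild-type H2AK119ub in normalized counts per kb on a log scale, for each wild-type library, in kept, intermediate, erased and all autosomal regions. Values below 0.1 are drawn at 0.1, boxes span the quartiles with the median as a line, and whiskers reach the 10th and 90th percentiles. Kept and erased regions overlap widely, and both lie above all autosomal regions.

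Wild-type H2AK119ub varied widely among the members with at least 50 H3K27me3 normalized counts in both genotypes, and members with fewer counts were not ranked. Beside the chromosome 1 and chromosome 6 regions described above, the densest in H2AK119ub among them were chromosome 19 from 1445601 to 1455600, with 21.9 H2AK119ub normalized counts per kb in wild type, and chromosome 16 from 848801 to 855400, with 21.1. The chromosome 19 region had 251 and 243 H3K27me3 normalized counts in the knockout libraries and 222 and 256 in the wild-type libraries, which overlapped. At the low end of the same members, chromosome 18 from 33108401 to 33122600 had 2.18 H2AK119ub per kb in wild type and 156 and 123 H3K27me3 counts in the knockout libraries, against 107 and 122 in the wild-type libraries. Chromosome 1 from 208619001 to 208627400 had 2.20, chromosome 10 from 120105001 to 120113600 had 2.38 and chromosome 2 from 153136801 to 153143200 had 2.66. H3K27me3 was kept in these 4 regions at densities from 8.28 to 12.2 per kb in the knockout, where wild-type H2AK119ub was below the autosomal median.

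H2AK119ub was lost from the kept regions in the knockout. The summed normalized count per kb was 0.0504 and 0.0590 in the knockout libraries, against 6.30 and 6.90 in the wild-type libraries. The knockout level was 0.829% of the wild-type level. In erased regions it was 0.648%, and over all autosomal regions 1.10%. In the kept regions the knockout densities were far below the wild-type densities, although the exact two-sided permutation p was 0.33, and 2 libraries against 2 cannot give less. The knockout values were both below the wild-type values in 1006 members (99.6%), and in 99.3% of all autosomal regions. No source used here says whether regions were called from wild-type H2AK119ub. For single regions, 920 of the 1010 members had enough counts to be tested, all of them through their wild-type values. All 920 were called lower by limma with Benjamini-Hochberg adjustment, as were 23699 of all 23700 tested regions (100% when rounded), so the count is not particular to the members. Their median log2 fold change was -5.87 on the log2(normalized count + 1) scale, and -4.75 over all tested autosomal regions. As knockout values were near 0, these folds follow the wild-type level. After TMM scaling, which removes most of a global loss by construction, 433 of the 920 members were called lower with a median log2 fold change of -2.76. Without the first or the second wild-type library, 427 and 423 were called lower.

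The few H2AK119ub counts in the knockout libraries were spread differently from those in wild type. The kept regions held 7.52% and 7.19% of the autosomal H2AK119ub count in the knockout libraries, against 10.1% and 9.40% in the wild-type libraries. A lower share was not particular to them: the erased regions held 2.70% and 2.60% in the knockout libraries, against 4.44% and 4.54% in the wild-type libraries. In the knockout libraries the kept regions had 1.18 and 1.17 times the density of the erased regions, against 0.968 and 0.876 times in the wild-type libraries. The kept share and the kept-over-erased ratio were both without overlap between genotypes. Each had an exact two-sided permutation p of 0.33, the smallest this design can give. As both are shares or ratios within a library, a scaling factor for a whole library cancels out of them. Any rounding to whole numbers, which weighs most on the low knockout values, would not cancel. In the knockout libraries the summed density was 0.0504 and 0.0590 per kb in kept regions and 0.0428 and 0.0504 in erased regions. Over all autosomal regions it was 0.0374 and 0.0458. Kept regions thus had 1.35 and 1.29 times the density of all autosomal regions, against 1.82 and 1.69 times in wild type. No input library was used here, so mark and background cannot be told apart in these leftover counts. In both knockout libraries 375 members (37.1%) were at 0, compared with 59.3% of erased regions, which are narrower, and 54.4% of all autosomal regions.

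Leftover H2AK119ub of at least 1 normalized count per kb was found in 5 members, out of 8 such regions on the autosomes. These were picked out after their values were seen. The densest was the chromosome 1 region from 121484001, with 10 and 14 H2AK119ub counts in the knockout libraries, against 297 and 330 in the wild-type libraries. The chromosome 6 region from 58773801 had 16 and 22 in the knockout libraries and 487 and 528 in the wild-type libraries. Chromosome 7 from 61968801 to 61969600 had 4 and 2 in the knockout libraries and 66 and 71 in the wild-type libraries. Chromosome 17 from 41381601 to 41382400 had 1 and 2 in the knockout libraries and 110 and 107 in the wild-type libraries, and chromosome 16 from 46427001 to 46427800 had 0 and 2 in the knockout libraries and 12 and 19 in the wild-type libraries. All of these but the chromosome 17 region lay next to, or 0.0102 Mb from, the longest stretch without regions on their chromosome. Without the 5, knockout counts in the kept regions were 0.812% of wild-type H2AK119ub. In absolute counts the most leftover H2AK119ub was in the widest members: 27 and 42 counts in the knockout libraries in the 330.6 kb region of chromosome 15, against 1885 and 2121 in the wild-type libraries. The 373.6 kb region of chromosome 17 had 23 and 24 in the knockout libraries, against 2094 and 2186 in the wild-type libraries.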

How the data were processed

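ChIP-seq for H3K27me3 and H2AK119ub was read from 1 table of regions. Per the submitters' processing notes, Bowtie2, SAMtools, Picard, bedtools and deepTools were used with build hg19. No source used here says how regions were called. The header names a fold and p-value limit, which not all rows meet. The values are a score in whole numbers deposited by the authors, normalized counts per the file headers, not raw counts. Depth is therefore unknown, and 8 further log2 columns were not used. Starts and ends were shifted by 1 to count from 1. The members and comparisons were chosen with earlier results of these data known. H2AK119ub was fitted over all 23700 regions with at least 2 libraries at 10 or more and a sum of at least 15, by limma (version 3.58.1, R version 4.3.3), after a pseudocount of 1 and log2, allowing a trend of variance with level. Calls were made at an adjusted p under 0.05 (Benjamini-Hochberg). TMM factors were computed directly by their published formula. The prior had 1.10 degrees of freedom. Shares and ratios per library were compared by exact permutation.

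The fit was tested on simulated data. There a small set of regions fell by a few-fold and all others stayed at the wild-type level, unlike the near-complete loss in the real libraries. A first requirement on how many changes it should recover was not met and was replaced, after its result was seen, by requirements on unbiased folds, false calls and recovery in regions with many counts. In the simulation most changes in regions with under 50 normalized counts were missed, so a region that is not called may still have changed. No pairing of libraries by replicate number was seen: the correlation of same-numbered deviations was -0.000149 for H2AK119ub and 0.0112 for H3K27me3. For H2AK119ub this could show little, as knockout values were near 0, and a shift of a whole library would not appear in it. Named regions were the 4 members at each end of H3K27me3 change and wild-type H2AK119ub density and the 4 highest in knockout H3K27me3 density, among the 789 with at least 50 H3K27me3 normalized counts in both genotypes, plus the 4 widest, the longest runs and the 3 with most leftover H2AK119ub. Others are said to be picked after their values were seen. The position and neighbour comparisons are descriptions.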

Additional observations from a re-analysis of the deposited data

How the results depend on the processing

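The number of members was 3748 with a density limit of 6 and 342 with a limit of 10, and 967 to 1190 when the rule used other scaling or 1 replicate. Their median H3K27me3 fold turned below 1 under scaling: it was 0.946 with column totals and 0.962 with TMM factors for members chosen anew, and 0.759 and 0.785 for the members chosen on the deposited values. The median width was 8.4 kb and 11.8 kb at limits of 6 and 10, 14.2 kb with column totals, 14.1 kb with TMM factors, 9.8 kb and 11.8 kb when only replicate 1 or replicate 2 chose the members, 16 kb with at least 50 wild-type counts, and 11.2 kb without the chromosome 15 segment. The share near chromosome ends was 15.2% and 29.2% at limits of 6 and 10. With 2 Mb in place of 5 it was 14.7% (erased 2.04%, all autosomal 3.59%), and with 10 Mb 29.5% (erased 10.6%, all autosomal 17.1%), alternatives chosen after seeing the data. The share of tested members called lower in H2AK119ub was 47.1% with TMM factors, and 46.0% to 100% leaving out 1 library, where a lone library is assumed to vary like the other genotype. The loss of calls came with either wild-type library left out. The H3K27me3 fold was above 1 in 14 of the 20 named regions as deposited and turned below 1 in 8 of these with TMM factors, which include the 4 densest in the knockout. For H2AK119ub, TMM factors turned the log2 folds of 3 of the 20 named regions above 0. These were 0.53 and 0.50 in the dense chromosome 1 and 6 regions and 1.03 on chromosome 1 from 208619001. With the replicate number as a block, 100% were called lower and the kept-over-erased difference in ratio was 0.254 (exact paired permutation p = 0.5, the smallest possible). That difference was 0.205 to 0.391 in the alternatives run, and the difference in H2AK119ub share -3.87 to -1.30 percentage points. The ratio of kept to erased medians could not be given for the knockout, where median H2AK119ub was 0, and no median of region shares was run.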
